A study of Mus musculus with 10 samples.

Results

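The genes described are 42 genes of motile cilia and of the axoneme, the microtubule shaft inside a cilium. They were taken from a list of gene symbols, and a gene counted as measured where the array annotation gave a probe set exactly that symbol and no other. A probe set is the group of short probes that reads a transcript on these arrays, and where a gene had several the brightest, averaged over the 10 arrays, was read. Of the 42 genes 40 had such a probe set; Mcidas and Sntn had none. Of these, 39 had at least 2 arrays at a log2 signal of 5 or above and were tested among 14988 genes in all. Spag6, a central pair protein, lay below that limit at 2.79 to 3.09 on all 10 arrays. Spag17 lay just above it, with 3 arrays of 5 or more, all of them hyperoxia arrays. Because Spag17 entered the tests through its high group alone, its difference is a description. Ccdc113 and Lrrc6 reached the limit on 8 arrays each, all but those of P14 room air.

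Motile cilia are the beating hairs of multiciliated cells, which line the conducting airways and move mucus out of the lung. In the axoneme, doublet microtubules surround a central pair. Outer and inner dynein arms slide the doublets, radial spokes and the central pair time the strokes, and the nexin-dynein regulatory complex turns sliding into bending. Foxj1 is the transcription factor that switches on the genes of motile cilia, together with factors of the RFX family, and in the mouse lung ciliated cells go on increasing after birth.

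Whole lungs of ICR mouse pups were dissected and washed with saline, and their total RNA was measured on Affymetrix arrays. The control groups breathed room air until postnatal day 14 (P14) or day 29 (P29), with 2 arrays each. The other groups breathed 80% oxygen (hyperoxia, which the labels call hyperoxia-induced bronchopulmonary dysplasia, a lung disease seen after preterm birth) until the same ages, with 3 arrays each. Exposure began in the first hours after birth and lasted until the lungs were taken, so age and length of exposure cannot be told apart. Pups were pooled before they were assigned to groups, nursing dams were moved between groups, and the labels do not say whether an array holds the RNA of 1 animal. The p-values therefore reflect no more than the spread among these arrays, and that spread may be technical. All values are log2 signals, so that a difference of 1 is a 2-fold difference, and the small number of arrays limits their precision.

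Some features of the arrays moved with the groups. The actin 3' minus 5' difference, a control that is larger for broken or partly copied RNA, averaged 0.43 ± 0.16 (SD, n = 2) in room air at P14 against 1.69 ± 0.46 (SD, n = 3) after oxygen. The P29 averages were 0.63 ± 0.16 (SD, n = 2) and 1.81 ± 0.08 (SD, n = 3). All 6 hyperoxia arrays lay above all 4 room-air arrays (p = 0.00476 by a two-sided exact permutation test). The Gapdh 3' minus 5' difference, a like control, also parted them, at 0.48 to 1.11 in hyperoxia and -0.14 to 0.12 in room air. The part of the actin difference in the results was not tested beyond the fits given for each comparison, and that of Gapdh was not tested. Sex-linked transcripts showed a male pattern on all P14 arrays and a female one on both P29 room-air arrays. Of the P29 hyperoxia arrays replicate 1 was male, replicate 2 female, and replicate 3 showed Xist together with Y-linked transcripts. Age and sex therefore cannot be told apart in room air, nor in the difference of the oxygen effects between the ages. Sex was also uneven in the oxygen comparison at P29 and in the comparison of the ages in hyperoxia.

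The 10 ciliated cell markers behind the label of motile cilia genes were all members of the list, so they cannot check that label. Apart from Sntn, which had no probe set, these markers passed the filter, as did 14988 of 18193 genes. Their mean values over the 10 arrays ran from 5.58 for Ccdc113 to 11.12 for Tppp3. Levels of different probe sets are not set against each other.

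The promoters of these genes are shown because RFX factors and forkhead factors such as Foxj1 are the known regulators of the programme. RefSeq promoter windows of assembly GRCm38.p6, which run from 250 bases before to 50 bases after a start site, were at hand for 32 of the 39 genes, in 36 windows; Foxj1, Rsph1, Rsph4a, Armc4, Lrrc6, Tppp3 and Wdr78 were not among them. The RFX half-site GTTGCC, searched on both strands, was found in 15 of these 36 windows (41.7%), against 12.5% of all 32851 windows of the same length. Counted by gene, 14 of 32 genes held it (43.8%), against 14.1% of 27025 genes. The forkhead core TGTTTAC was found in 2 of the 36 windows (5.6%), against 3.6% of all windows. The 2 motifs share no overlap in these windows, the base composition of the windows was not matched, and a match is a description of letters and not a bound site.

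Below are the last 140 bases before the start site for 8 members, 5′ to 3′ on the strand of the gene, with the 2 motifs in capitals on whichever strand they lie. The first 5 hold an RFX half-site, Mlf1 and Ak7 a forkhead core, and the last 2 hold neither of these exact strings of letters. Looser forms of the motifs were not searched, so other sites in these stretches may have been missed. Capsl is the member with the largest rise at P14, and Dnaic1 did not rise. The 8 printed genes are examples and were not drawn at random, so they do not show how often members hold a motif. Ttc29, among the largest rises at P14, and Ccdc39, among the largest at P29, held neither motif and are not printed.
Fam183b, chr11:58801961-58802100, minus strand: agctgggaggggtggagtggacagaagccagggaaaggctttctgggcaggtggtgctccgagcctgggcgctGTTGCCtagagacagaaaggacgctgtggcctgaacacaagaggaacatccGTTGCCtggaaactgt
Enkur, chr2:21205366-21205505, minus strand: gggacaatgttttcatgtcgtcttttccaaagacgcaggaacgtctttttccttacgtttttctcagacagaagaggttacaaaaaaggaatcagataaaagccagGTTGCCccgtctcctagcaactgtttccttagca
Tekt1, chr11:72361883-72362022, minus strand: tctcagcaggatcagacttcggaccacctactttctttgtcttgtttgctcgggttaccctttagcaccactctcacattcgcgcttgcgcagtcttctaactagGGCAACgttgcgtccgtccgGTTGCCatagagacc
Pifo, chr3:106001498-106001637, minus strand: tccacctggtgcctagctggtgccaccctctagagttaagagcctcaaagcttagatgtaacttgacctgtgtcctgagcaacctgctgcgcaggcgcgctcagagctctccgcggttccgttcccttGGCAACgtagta
Mlf1, chr3:67373957-67374096, plus strand: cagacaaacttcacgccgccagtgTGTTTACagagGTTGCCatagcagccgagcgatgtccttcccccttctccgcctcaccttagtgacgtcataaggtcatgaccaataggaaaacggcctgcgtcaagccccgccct
Ak7, chr12:105705842-105705981, plus strand: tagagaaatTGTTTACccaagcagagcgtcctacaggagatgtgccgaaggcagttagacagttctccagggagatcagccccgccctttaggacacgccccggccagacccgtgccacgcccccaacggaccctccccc
Capsl, chr15:9435888-9436027, plus strand: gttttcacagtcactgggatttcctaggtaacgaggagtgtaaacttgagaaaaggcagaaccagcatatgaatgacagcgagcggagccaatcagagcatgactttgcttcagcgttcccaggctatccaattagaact
Dnaic1, chr4:41569654-41569793, plus strand: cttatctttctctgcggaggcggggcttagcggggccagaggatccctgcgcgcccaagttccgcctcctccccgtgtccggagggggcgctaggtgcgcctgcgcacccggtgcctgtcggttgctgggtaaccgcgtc
In Mlf1 the forkhead core began 116 bases and the half-site 105 bases before the start site, and in Enkur the half-site began 34 bases before it. Fam183b and Tekt1 each held 2 half-sites, those of Tekt1 on opposite strands, and a second window of Tekt1 held none. In Pifo the half-site lay 12 to 7 bases before the start site, and a second window of that gene held none. Hydin, which is not printed and did not pass the test at P14, held a half-site 13 to 8 bases before the start site.

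The first comparison asked what oxygen had changed by P14. Motile cilia genes were higher in hyperoxia than in room air: 35 of the 39 rose, 15 of them by 2-fold or more, 1 fell and 3 did not pass the test. Without Spag17 the count was 34 of 38. Over all genes tested 55% were called, 32.3% as higher and 22.8% as lower. How many of all genes rose by 2-fold or more was not counted in any comparison, so the 2-fold counts have no such share beside them. The median difference of the 39 genes was 0.86, against 0.04 over all genes. The same 35 genes, Spag17 among them, had every hyperoxia array above both room-air arrays, a pattern that 39.6% of all genes showed. In bulk tissue, more ciliated cells and more of these transcripts per cell cannot be told apart.

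Foxj1 was at 6.59 and 6.86 in room air and at 7.43, 7.43 and 7.59 in hyperoxia. The groups did not overlap, and the rise was 1.69-fold (0.76 ± 0.13, SE, adjusted p = 0.000645). With the actin control in the fit it was 0.41 and no longer passed. Capsl, which encodes a calcium-binding protein found in ciliated cells, was at 5.57 and 5.79 in room air and at 7.70, 7.47 and 7.80 in hyperoxia. It rose 3.93-fold (1.97 ± 0.14, SE, adjusted p = 2.02e-06), more than any other of the 39 genes. Enkur, a protein of the doublet microtubules, was at 5.96 and 6.52 in room air and at 8.12, 7.76 and 7.91 in hyperoxia, a 3.22-fold rise (1.69 ± 0.17, adjusted p = 2.35e-05). The room-air arrays of Enkur lay further apart than its hyperoxia arrays. Fam183b, another ciliated cell gene, was at 6.70 and 7.04 against 8.63, 8.27 and 8.62, a 3.10-fold rise (1.63 ± 0.17, adjusted p = 3.13e-05). Ttc29, which takes part in flagellar transport, was at 5.26 and 5.73 against 7.22, 6.82 and 7.11, a 2.93-fold rise (1.55 ± 0.15, adjusted p = 2.08e-05). In Capsl, Enkur, Fam183b and Ttc29 the lowest hyperoxia array exceeded the highest room-air array by more than 1 log2 unit.

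**Figure D1:**
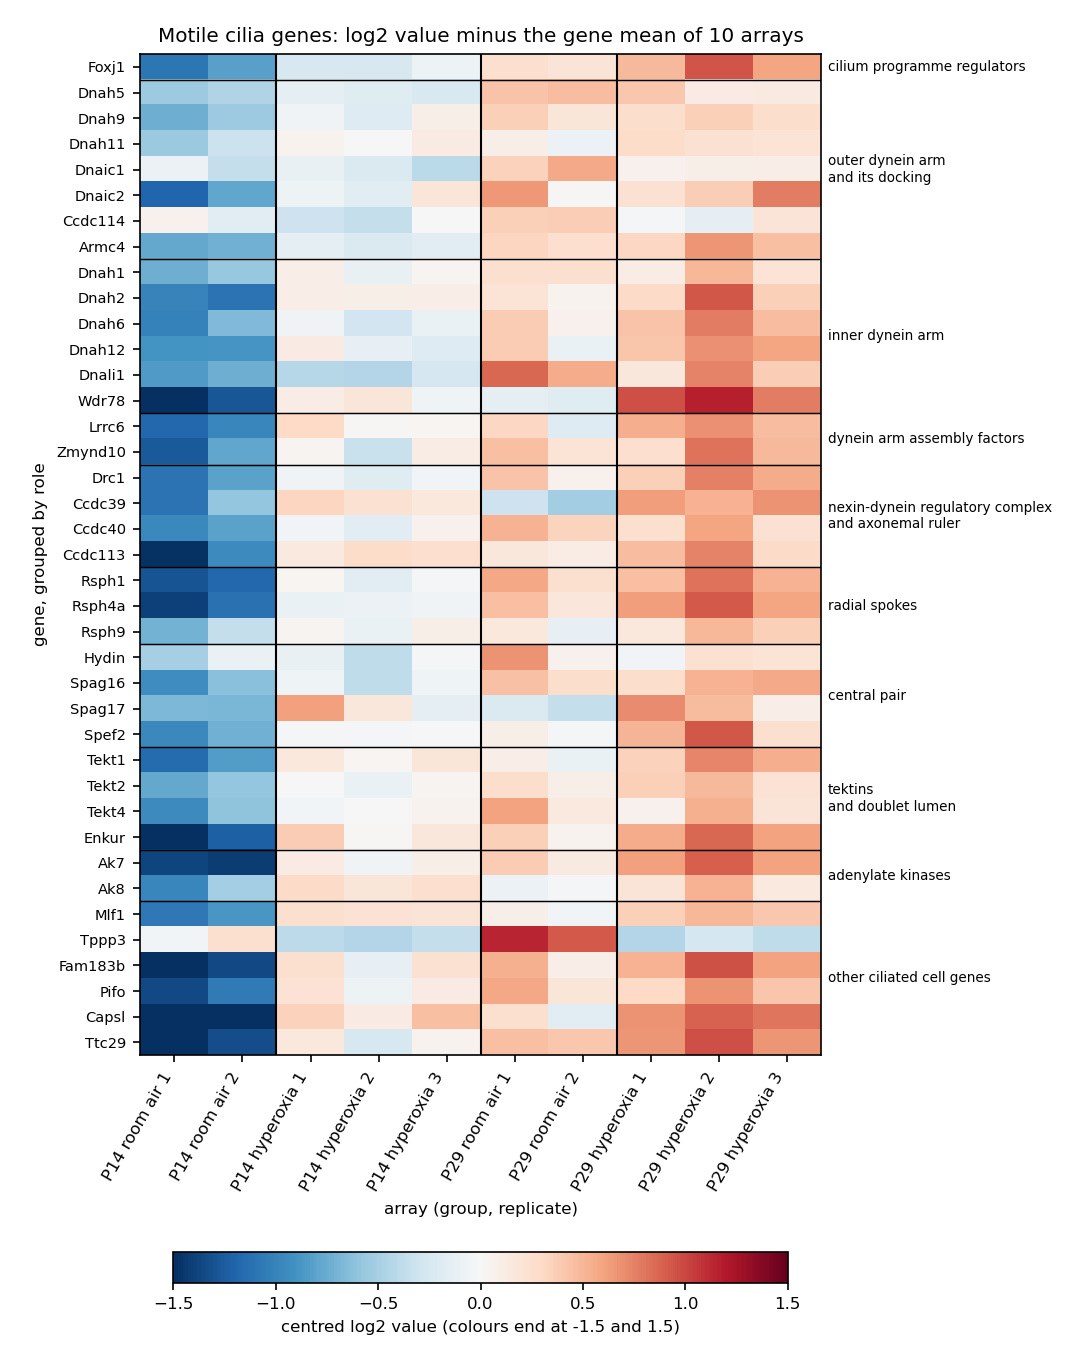
Each row is a motile cilia gene and each column an array, and colour gives the log2 value minus the mean of that gene over the 10 arrays; black lines part the groups and the roles. The P14 room-air arrays are low for most genes, with a median centred value of -1.01 and -0.78, and Tppp3 stands apart.

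Dynein arm genes rose for the most part. All 6 inner arm genes rose, from Dnali1, an inner arm light chain (0.42 ± 0.15, SE, adjusted p = 0.0354), to Wdr78, an inner arm intermediate chain (1.49 ± 0.13). The heavy chains of the inner arm Dnah1, Dnah2, Dnah6 and Dnah12 rose by 0.66, 1.15, 0.70 and 0.83. Of 7 genes of the outer arm and its docking 5 rose: the heavy chains Dnah5 by 0.31, Dnah9 by 0.59 and Dnah11 by 0.49, the intermediate chain Dnaic2 by 0.97 and the docking protein Armc4 by 0.56. The rise of Dnaic2 is uncertain, since its dimmer probe set gave -0.44. The other outer arm intermediate chain, Dnaic1, was at 6.43 and 6.17 in room air and at 6.41, 6.31 and 6.12 in hyperoxia. Its groups overlapped and the difference was -0.02 ± 0.11 (SE, adjusted p = 0.894). Ccdc114, an outer arm docking protein, differed by -0.17 ± 0.13 (adjusted p = 0.269), also with overlapping arrays. Both assembly factors, which put dynein arms together in the cytoplasm, rose, Lrrc6 by 1.20 and Zmynd10 by 0.96. Whether the 2 arms differed from each other was not tested.

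The genes that hold and time the arms rose as well. All 4 genes of the nexin-dynein complex and the axonemal ruler, which sets the spacing of the arms, were higher: Drc1 by 0.86, Ccdc39 by 1.08, Ccdc40 by 0.84 and Ccdc113 by 1.44. All 3 radial spoke genes rose, Rsph1 and Rsph4a by 1.19 and 1.18 and Rsph9 by 0.55. Among the central pair genes Spag16 rose by 0.61 and Spef2 by 0.83, while Hydin, a large central pair protein, differed by 0.13 ± 0.18 (SE, adjusted p = 0.559). Spag17 was 0.89 higher. The tektins, filament proteins of the doublets, rose by 1.12 (Tekt1), 0.65 (Tekt2) and 0.78 (Tekt4). The adenylate kinases Ak7 and Ak8, which supply the axoneme with energy, rose by 1.45 and 0.99, and the ciliated cell genes Mlf1 and Pifo by 1.19 and 1.29. Tppp3, a protein that bundles microtubules and is also known from connective tissue cells, was the exception. It was at 11.07 and 11.36 in room air and at 10.72, 10.68 and 10.76 in hyperoxia, a fall of 1.41-fold (-0.50 ± 0.10, SE, adjusted p = 0.00206).

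The called genes kept their direction in the refits, which read each gene by its brightest or most variable probe set or by the mean of all; some single dimmer probe sets, among them those of Dnaic2 and Dnah1, gave the other sign. When the actin control entered the fit, the median was 0.74 but 12 genes rose and Tppp3 no longer passed, while calls over all genes dropped from 55% to 9.28%. Setting each array to its 75th percentile shifted the all-gene median from 0.04 to -0.14 and left 33 members higher and 2 lower. Over all genes, calls that were higher made up 58.6% of calls in the main scaling, 46.8% after quantile normalization and 35.4% at the 75th percentile.

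The second comparison asked what oxygen had changed by P29. Here 14 of the 39 genes rose, 2 of them by 2-fold or more, 3 fell and 22 did not pass the test; without Spag17, 13 of 38 rose. Over all genes 59.7% were called, 34.2% as higher and 25.6% as lower, so the share of cilia genes that rose, 35.9%, was close to that of all genes. Their median difference was 0.32, against 0.04 over all genes. It was 0.16 without P29 room air replicate 2, and 0.15 after quantile normalization, at the 75th percentile and with the actin control in the fit. In 20 genes, Spag17 among them, every hyperoxia array lay above both room-air arrays, against 41.2% of all genes. In 4 genes every one lay below, against 33.1%.

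Wdr78 and Ccdc39 rose the most. Wdr78 was at 7.55 and 7.51 in room air and at 8.66, 8.86 and 8.46 in hyperoxia, a 2.20-fold rise (1.13 ± 0.13, SE, adjusted p = 2.5e-05). Ccdc39, the axonemal ruler protein, was at 7.78 and 7.57 against 8.72, 8.61 and 8.76, a 2.03-fold rise (1.02 ± 0.13, adjusted p = 8.01e-05). In both the groups lay well apart. Capsl was at 7.59 and 7.19 against 8.02, 8.23 and 8.15, a 1.67-fold rise (0.74 ± 0.14, adjusted p = 0.000768). Spag17 was at 4.49 and 4.35 against 5.42, 5.18 and 4.81, which is a description only. Foxj1 was at 7.91 and 7.86 in room air and at 8.16, 8.61 and 8.26 in hyperoxia, a rise of 1.37-fold without overlap (0.46 ± 0.13, adjusted p = 0.0113). Apart from Spag17, the other genes that rose were Dnah2, Dnah12, Lrrc6, Rsph4a, Spef2, Tekt1, Enkur, Ak7 and Mlf1, by 0.39 to 0.54.

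Of the 7 genes of the outer dynein arm 2 fell at P29 and the other 5 did not pass the test. Dnaic1 was at 6.87 and 7.09 in room air and at 6.59, 6.61 and 6.62 in hyperoxia (-0.37 ± 0.11, SE, adjusted p = 0.0131). Ccdc114 was at 7.29 and 7.30 against 6.91, 6.80 and 7.13 (-0.35 ± 0.13, adjusted p = 0.0359). Dnah5 differed by -0.22 ± 0.09 (adjusted p = 0.067) and Dnah9 by 0.02 ± 0.10 (adjusted p = 0.897). The largest fall among the 39 genes was that of Tppp3, from 12.26 and 12.04 in room air to 10.68, 10.85 and 10.74 in hyperoxia, 2.63-fold (-1.40 ± 0.10, adjusted p = 1.61e-06). Its hyperoxia values at P29 overlapped those at P14, whereas its room-air values rose with age.

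The P29 count rests on few arrays. Without P29 room air replicate 2, in which 35 of the 39 genes lay below replicate 1, 5 genes rose, and Foxj1 was no longer among them; Wdr78, Ccdc39, Capsl, Mlf1 and Tekt1 were. In that fit 12.8% of the cilia genes and 28.6% of all genes were higher. With each array set to its 75th percentile 7 rose and 5 fell, against 37.2% higher among the calls of all genes in place of 57.2%, and with the actin term 3 rose and 1 fell. P29 hyperoxia replicate 2, the array with female transcripts, was the highest of its group for 31 of the 39 genes, against 40.7% of all genes. With that array alone against P29 room air, so that all arrays compared were female, 21 genes rose and 3 fell; of all genes 27.5% rose and 19.1% fell.

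**Figure D2:**
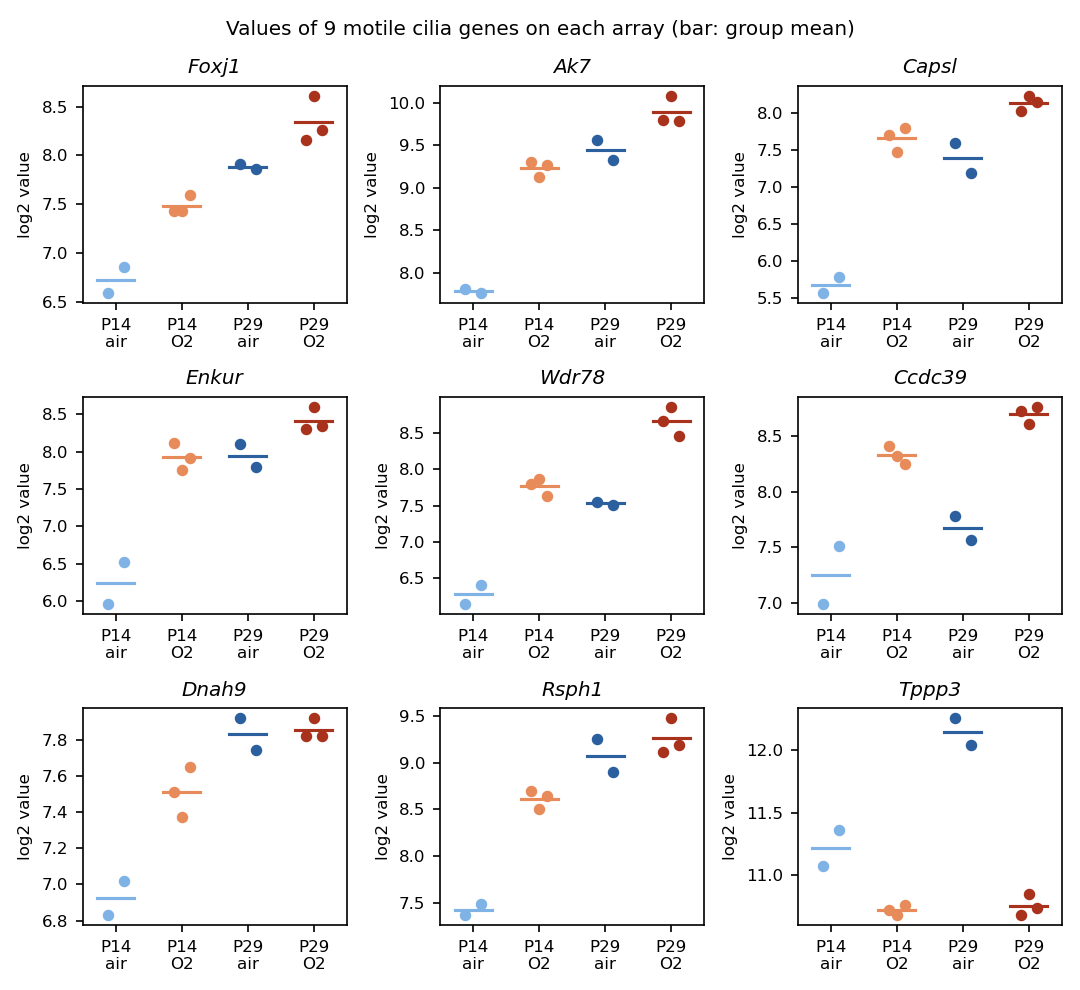
Points are the log2 values of single arrays for 9 motile cilia genes and bars are group means (n = 2 for room air, labelled air, and n = 3 for 80% oxygen, labelled O2); each panel has its own axis, which does not start at 0. Most genes step up from P14 room air to P14 hyperoxia. At P29 the groups overlap in Dnah9 and Rsph1, and Foxj1, Ak7, Capsl and Enkur are higher in hyperoxia by a smaller step. Wdr78 and Ccdc39 show the largest rises at P29, and Tppp3 is lower in hyperoxia at both ages.

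The effect of oxygen was smaller at P29 than at P14, or more negative, in all 39 genes. Over all genes tested this held for 50.1%. By their sex-linked transcripts the P14 arrays were male, the P29 room-air arrays female and the P29 hyperoxia arrays mixed. Age and sex therefore cannot be told apart in this difference. The difference of the effects passed the test in 22 genes, all of them lower at P29 (limma). Over all genes 22.5% were called, 11.6% as lower and 11% as higher. Mlf1, whose product is known from leukaemia and from ciliated cells, had the smallest p: its effect fell from 1.19 to 0.39, a difference of -0.79 ± 0.12 (SE, adjusted p = 0.000926). In Capsl the effect went from 1.97 to 0.74, a difference of -1.23 ± 0.19 (adjusted p = 0.00105). In Ak7 it went from 1.45 to 0.45, a difference of -1.0 ± 0.16 (adjusted p = 0.00108). For Tppp3 the negative effect grew, by -0.90 ± 0.15 (adjusted p = 0.0014).

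In some genes the effects were not told apart. The difference was -0.05 ± 0.19 (SE, adjusted p = 0.876) for Ccdc39, -0.30 ± 0.19 (adjusted p = 0.277) for Foxj1 and -0.36 ± 0.18 (adjusted p = 0.176) for Wdr78. Across the 39 genes the effects at P14 and at P29, which share no array, correlated at r = 0.76, against 0.61 across all genes; genes of the same arrays are not independent, and this is a description. The actin 3' minus 5' gap between hyperoxia and room air was of like size at both ages, and with the actin control in the fit 19 genes differed. Without P14 room air replicate 1, or without P29 room air replicate 1, 13 genes differed, and with P29 hyperoxia replicate 2 as the only P29 hyperoxia array 12 did; no gene differed in the other direction in these fits.

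**Figure D3:**
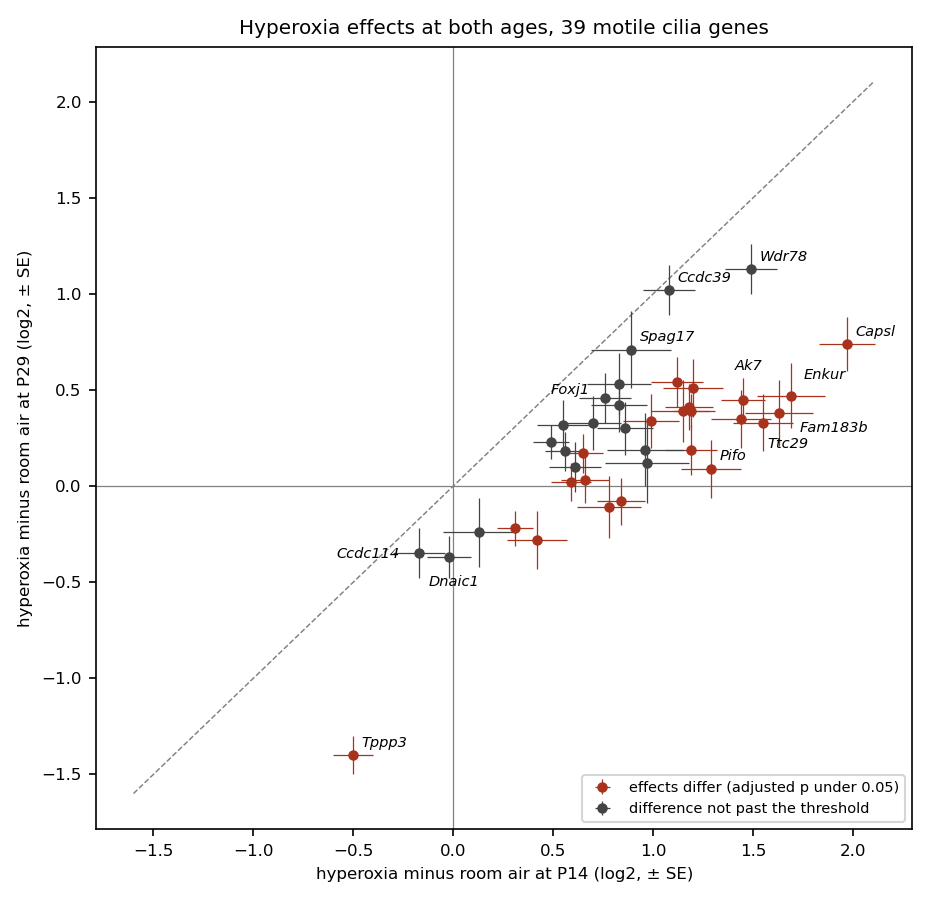
Each point is 1 of 39 motile cilia genes, with the hyperoxia effect (log2, hyperoxia minus room air) at P14 on the horizontal and at P29 on the vertical axis, lines for ± SE, and a dashed line where both are equal. All points lie below the dashed line, and the 22 red points are genes whose effects differed at an adjusted p under 0.05.

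In room air these genes rose with age. From P14 to P29 38 of the 39 genes rose, 23 of them by 2-fold or more. Of all genes 41.3% were called, 22.2% as higher and 19.1% as lower. The P14 arrays were male and the P29 arrays female by their sex-linked transcripts. The median of the 39 genes was 1.13, against 0.01 over all genes. Ak7 went from 7.81 and 7.76 at P14 to 9.56 and 9.32 at P29, 3.15-fold (1.65 ± 0.12, SE, adjusted p = 1.43e-06). Ttc29 went from 5.26 and 5.73 to 7.51 and 7.46, 3.98-fold (1.99 ± 0.17, adjusted p = 3.93e-06). Rsph1, a radial spoke head protein, went from 7.37 and 7.49 to 9.25 and 8.90, 3.12-fold (1.64 ± 0.14, adjusted p = 4.26e-06). Foxj1 rose by 1.16 ± 0.14. Tppp3, which fell in hyperoxia, rose with age by 0.94 ± 0.11, and the gene that did not pass was Spag17 (0.38 ± 0.22, adjusted p = 0.19).

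In hyperoxia the rise with age was smaller. There 26 genes rose, by less than 2-fold each, with a median of 0.43. Of all genes 27.1% were called, 15.4% as higher and 11.7% as lower. The test of that smaller rise is the same as that of the difference of the oxygen effects. Those of smallest p were Wdr78 (0.90 ± 0.11, SE, adjusted p = 0.00021), Armc4 (0.65 ± 0.09, adjusted p = 0.00037) and Foxj1 (0.86 ± 0.12, adjusted p = 0.000376). Tppp3 differed by 0.04 ± 0.09 (adjusted p = 0.813). The count was 14 without P14 hyperoxia replicate 2 and 16 without P29 hyperoxia replicate 2. By their sex-linked transcripts the P14 hyperoxia arrays were male and the P29 hyperoxia arrays mixed, and the part of sex was not tested.

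The comparisons with P14 room air share its 2 arrays, so their values are set side by side only. In 17 of the 39 genes (43.6%), among them Foxj1, Ak7, Rsph1 and Dnah9, the arrays fell into 3 separate steps, with P14 room air lowest, P14 hyperoxia next and P29 room air highest; 5.38% of all genes showed this order. Dnah9, an outer arm heavy chain, was at 6.83 and 7.02 in P14 room air, at 7.51, 7.37 and 7.65 in P14 hyperoxia and at 7.92 and 7.74 in P29 room air. Every P14 hyperoxia array lay below both P29 room-air arrays in 21 genes (53.8%), against 37.8% of all genes. In 13 genes (33.3%), among them Capsl, Enkur and Fam183b, these groups overlapped, against 22.7% of all genes. In 5 genes (12.8%), Wdr78, Ccdc39, Spag17, Ak8 and Mlf1, every P14 hyperoxia array lay above, against 39.5% of all genes.

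Other genes of the programme were counted from lists that hold none of the 42 genes. Of all genes, 32.3% rose and 22.8% fell with oxygen at P14, 34.2% rose and 25.6% fell at P29, and 22.2% rose and 19.1% fell with age in room air. Of 57 further genes of the motile axoneme 38 rose and 2 fell at P14, with a median of 0.53, and 17 rose by 2-fold or more. Cfap54 rose by 1.60 ± 0.11 (SE), Cfap206 by 1.19 ± 0.09, Lrrc34 by 2.03 ± 0.15 and Cfap299 by 1.93 ± 0.14. At P29 22 rose (38.6%, near the share of all genes) and 10 fell, with a median of 0.25. Cfap69 rose by 1.33 ± 0.12, while Dnah8, a heavy chain best known from sperm, fell by 1.36 ± 0.13. The effect was lower at P29 in 19 of these genes, and 41 rose with age in room air.

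Regulators of multiciliated cells and of centriole amplification, by which such a cell makes its many basal bodies, were counted apart. Of 19 genes 9 rose and 2 fell at P14, and 12 rose and 3 fell at P29. Myb, a transcription factor of cells that become multiciliated, rose by 1.45 ± 0.12 (SE, adjusted p = 8.87e-06) at P14. Mycbp and Ccp110 rose there by 0.72 ± 0.09 and 0.56 ± 0.08. The 2 that fell at P14 were E2f5 (-0.86 ± 0.12) and, named after its values were seen, E2f4 (-0.68 ± 0.15). Both also fell at P29, E2f5 by -1.07 ± 0.12 and E2f4 by -0.77 ± 0.15. At P29 the rises of smallest p were those of Tfdp1 (1.10 ± 0.08), Plk4 (1.62 ± 0.15), Stil (1.45 ± 0.15) and Sass6 (1.04 ± 0.11). The last 3 build centrioles in dividing cells too, and 16 of 17 cell cycle genes rose at P29, against 10 at P14; which cells carry them was not tested. Named after their values were seen, the centriole amplifier Deup1 rose by 0.80 and 0.82 at the 2 ages, Rfx2 rose by 0.35 at P14 and fell by 0.44 at P29, and Rfx3 differed by 0.10 and rose by 0.42. Trp73, which acts above Foxj1, differed by -0.03 at P14 and by 0.02 at P29, neither past the threshold.

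Other lists held genes that serve motile and immotile cilia alike. Of 29 intraflagellar transport genes, which carry cargo along the cilium, 15 rose and 4 fell at P14 (median 0.27) and 14 rose and 3 fell at P29 (median 0.29). Ift74 rose by 1.14 ± 0.11 (SE) and 0.92 ± 0.11 at the 2 ages and Ift122 by 0.75 ± 0.09 and 0.76 ± 0.09, whereas Ift43 fell by 0.80 ± 0.09 at P29. Of 20 genes of the BBSome and the transition zone, the gate at the base of the cilium, 8 rose and 1 fell at P14 (median 0.18), and 11 rose and 2 fell at P29 (median 0.35). Bbs5 rose by 1.10 ± 0.09 and 0.66 ± 0.09 and Bbs7 by 0.92 ± 0.09 and 0.76 ± 0.09. With age in room air 7 of the 29 transport genes (24.1%) and 5 of the 20 BBSome and transition zone genes (25%) rose, near the share of all genes.

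Markers of other airway and epithelial cells changed too. Of 15 club and secretory cell markers 9 rose and 3 fell at P14 and 6 rose and 6 fell at P29, and in room air 14 rose with age. At P14 Pon1 rose by 2.02 ± 0.09 (SE), Aldh1a7 by 1.86 ± 0.09, Cckar by 2.24 ± 0.15 and the club cell cytochrome Cyp2f2 by 1.07 ± 0.07. The 3 that fell at P14, named after their values were seen, were Scgb3a1 by 2.74 ± 0.20 and the mucins Muc5b and Muc5ac by 0.72 ± 0.23 and 0.67 ± 0.08. The fall of Scgb3a1 was the largest oxygen effect of the list at P14. At P29 Pon1 and Aldh1a7 rose by 0.84 ± 0.09 and 0.79 ± 0.09, while the secreted airway proteins Bpifb1 and Scgb3a1 fell by 1.33 ± 0.16 and 1.51 ± 0.20. Bpifa1, named after its values were seen, fell by 3.86 ± 0.52, the largest oxygen effect of the list at P29. Scgb1a1, the main club cell secretory protein, named after its values were seen, rose by 0.35 ± 0.08 at P14 and differed by -0.10 ± 0.08 at P29. The median centred log2 value of this list was -1.03 and -0.99 in P14 room air, -0.10 to -0.08 in P14 hyperoxia, 0.29 and 0.30 in P29 room air and 0.36 to 0.51 in P29 hyperoxia. For the 39 cilia genes it was -1.01 and -0.78, then -0.11 to 0.04, 0.10 and 0.36, and 0.35 to 0.67. The median oxygen effect of the club and secretory list was 0.35 at P14 and -0.13 at P29, against 0.86 and 0.32 for the cilia genes. Of 14 pan-epithelial genes 9 rose and 2 fell at P14. Those that rose included Cdh1 by 1.12 ± 0.09, Epcam by 0.78 ± 0.09 and Foxa1 by 0.77 ± 0.08. The epithelial transcription factor Ehf rose by 2.35 ± 0.12. The 2 that fell at P14, named after their values were seen, were Nkx2-1 (-0.81 ± 0.18) and Cldn3 (-0.45 ± 0.11). At P29 6 rose and 5 fell; Epcam rose by 0.67 ± 0.09, while the lung epithelial factor Nkx2-1 fell by 1.14 ± 0.18 and the tight junction gene Cldn3 by 0.86 ± 0.11. The part of these cells in the cilia result was not tested.

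Among 6 airway basal cell markers 2 rose at P14 and 4 fell at P29. Among 4 neuroendocrine markers 1 rose and 1 fell at P14, and 2 rose and 1 fell at P29. Of 6 alveolar type 2 markers 3 fell at P14 and 4 at P29, and of 6 alveolar type 1 markers 1 rose at P14 and 2 rose and 3 fell at P29.

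**Figure D4:**
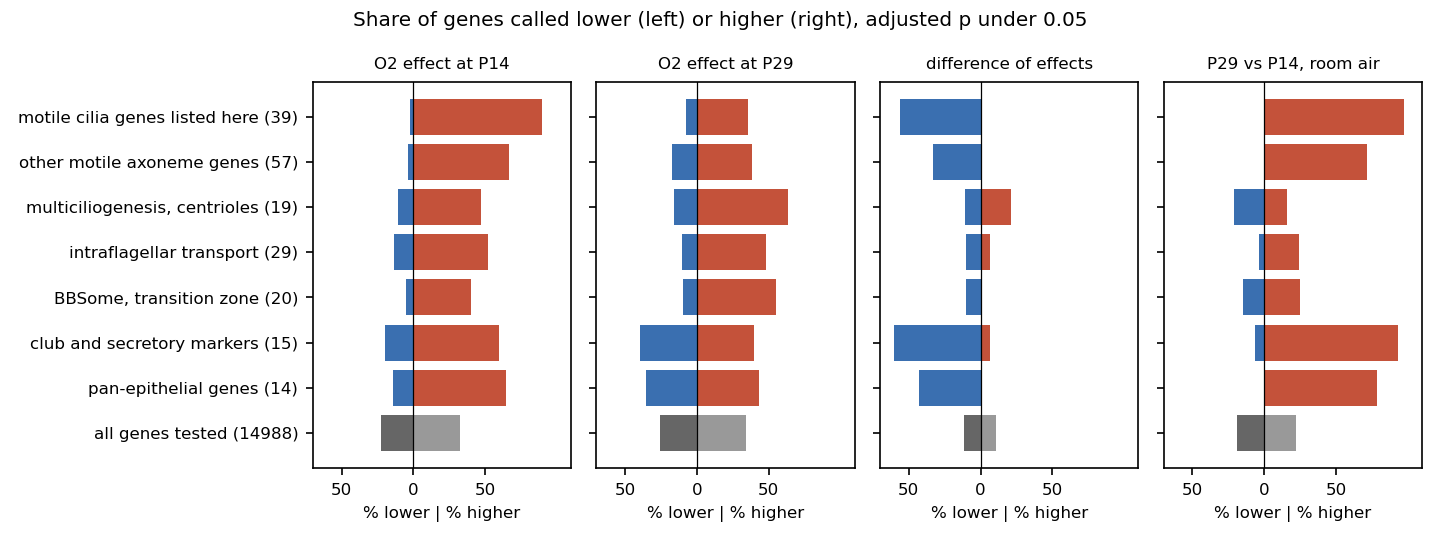
Bars give the percent of genes of each list called higher (right, red) or lower (left, blue) at an adjusted p under 0.05 in 4 comparisons, with the number of genes tested in brackets and all genes in grey. Of the 39 motile cilia genes 89.7% were higher at P14, 35.9% at P29 and 97.4% with age in room air, and 56.4% had a lower effect at P29. Without Spag17 the shares higher at P14 and at P29 were 89.5% and 34.2%.

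Further probe sets of the same genes did not always give the same value. Dimmer probe sets were at hand for 13 of the genes, 17 in all. For Dnaic2 the second one gave -0.44 at P14, against 0.97 on the brighter one, so the rise of that gene is uncertain. That of Dnali1 gave 0.20 at P14 and -0.36 at P29, against 0.42 and -0.28. For Dnaic1 it gave -0.07 and -0.60, against -0.02 and -0.37, and for Lrrc6 0.88 and 0.28, against 1.20 and 0.51. For Dnah1 the second probe set, at a mean of 4.98, gave -0.12 at P14, and most of the others lay below a log2 value of 5 on every array. Of these dim ones, that of Wdr78 gave -0.03 at P14 and -0.16 at P29, against 1.49 and 1.13. That of Dnah9 gave -0.15 at P14, against 0.59. For Spag16 the further probe sets gave -0.15, 0.06 and -0.2 at P14, against 0.61. Those of Ccdc39, Dnah2, Spef2 and Spag17 gave 0.01 to 0.55 at P14.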

How the data were processed

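The values are log2 signals of probe sets that the authors deposited, 1 array per sample; the submitters' processing notes name Partek 6.4 and GCRMA, with no settings given in the sources used here. Of 45101 probe sets, 34945 carried 1 gene symbol in the platform annotation, 932 several and 9211 none, and 13 control probe sets were left out. The deposited log2 values were used unchanged. Brightest probe sets of 18193 genes were taken, and 14988 genes had 5 or more on at least 2 arrays. Group means of all 10 arrays were fitted by lmFit and eBayes of limma 3.58.1 (R 4.3.3; 6 residual degrees of freedom), with 5 contrasts, two-sided tests and Benjamini-Hochberg adjustment over the 14988 genes at 0.05. SE is that of the contrast; SD is between arrays.

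The genes and lists were chosen with earlier results of these data known, so no list is independent support. Genes named: Foxj1; the 4 largest rises and falls past the threshold per oxygen comparison; the 3 of smallest p per direction in the other comparisons; up to 4 of smallest p per other list; the remaining members by value and count. The steps were tested on simulated data. Alternatives were filters, choice of probe set, variance model, samples fitted, scaling, array weights, a replicate block, an actin term, and leaving out arrays. No genome build is given for the array in the sources used here; coordinates are those of the RefSeq promoter table.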

Additional observations from a re-analysis of the deposited data

Results flagged for a closer look

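The effect of oxygen differed between the ages, by the test of the difference itself (limma, adjusted p under 0.05), in 22 motile cilia genes; values are the effect at P29 minus that at P14 on the log2 scale. Among the outer arm genes it was -0.53 for Dnah5 and -0.57 for Dnah9. Inner arm genes gave -0.63 for Dnah1, -0.76 for Dnah2 and -0.70 for Dnali1. The assembly factor Lrrc6 gave -0.68, and the regulatory complex and ruler genes Ccdc40 and Ccdc113 gave -0.92 and -1.09. The radial spoke genes Rsph1 and Rsph4a gave -1.0 and -0.77. For the doublet proteins it was -0.58 for Tekt1, -0.48 for Tekt2, -0.89 for Tekt4 and -1.22 for Enkur. The adenylate kinases gave -1.0 for Ak7 and -0.65 for Ak8. The other ciliated cell genes gave -0.79 for Mlf1, -0.90 for Tppp3, -1.26 for Fam183b, -1.20 for Pifo, -1.23 for Capsl and -1.22 for Ttc29. Age and sex cannot be told apart in these values. Groups of 2 and 3 arrays were too small for a test of whether the value of 1 array lies apart from its group.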

How the results depend on the processing

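Counts of members called were recomputed under 22 alternatives, 10 of which leave out 1 array. Of 139 called pairs of a gene and a comparison, 0 turned direction; in 2111 of 2356 refits the call held and in 245 it was lost. At P14 the actin term left 12 higher and 0 lower, and 2 were lower with each array at its 75th percentile and with the replicate block, Ccdc114 being added. At P29 the 75th percentile gave 7 higher and 5 lower, and the actin term 3 and 1. With P29 hyperoxia replicate 2 as the only P29 hyperoxia array, 12 effects were lower at P29. The causes were not tested. A fit of the compared groups alone gave no other value for the difference of effects, which uses all groups. With 1 array left out, the counts were 32 to 34 higher and 1 lower at P14, 5 to 18 higher and 2 to 3 lower at P29, and 13 to 25 lower effects at P29. With age they were 34 to 37 higher in room air and 14 to 26 in hyperoxia; 0 effects were higher at P29 and 0 genes lower with age. Where a group kept 1 array, that array was assumed to vary like the others. Over all genes the actin term left 812 higher and 579 lower at P14, against 4838 and 3412, and 1628 and 1277 at P29, against 5119 and 3831.

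The labels do not say that replicate numbers pair arrays, and the values did not settle it. Deviations from group means of same-numbered arrays correlated at -0.1 to 0.2, with 2 of 13 pairs over 0.1. Those of differently numbered arrays correlated at -0.16 to 0.15, with 2 of 24 pairs over 0.1. Among the hyperoxia arrays 4 of 6 correlated best with their own number at the other age. With the replicate block the P14 counts were 34 higher and 2 lower, the P29 counts 14 and 3, and 20 effects were lower at P29.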

Other observations

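Cilia genes also moved together between arrays of the same group. Replicate 2 of P14 room air was the higher of its pair for 34 of the 39 genes, against 59.9% of all genes, and replicate 1 of P29 room air for 35, against 49.3%. In P14 hyperoxia replicate 2 was the highest of its group for 2 genes, against 30.6% of all genes. These are values, and what set the arrays apart was not tested.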
